A study of Mus musculus with 6 samples.

Results

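The 43 genes described here encode proteins of cell junctions and cell adhesion, some of the corneal endothelium and some better known from other cell types: claudins, scaffolds, cadherins, catenins, nectins, connexins, desmosomal proteins and 3 further adhesion molecules. They were taken by symbol, and all 43 were matched among the 57180 gene identifiers of the files. RNA-seq had been carried out on 6 libraries of mouse corneal endothelial cells, the single layer at the back of the cornea that pumps fluid out of the stroma. The Tcf4+/- group (3 libraries) was homozygous for Col8a2 Q455K and heterozygous for a knockout of Tcf4, which encodes a transcription factor of the E protein family. The Col8a2 group (3 libraries) carried the homozygous Q455K mutation alone, with Tcf4 intact, so both groups are mutant in this collagen of Descemet membrane and neither is wild type. Mice with this mutation model Fuchs dystrophy of the cornea, and the cells were primary, with no treatment named beyond the knockout. The labels give no age, do not say whether corneas were pooled, and do not name the cells in which the Tcf4 allele was lost. The comparison asks what the loss of 1 Tcf4 allele does in this model.

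Epithelia seal the space between cells with tight junctions, built from claudins and occludin on scaffolds of the zonula occludens family. Adherens junctions couple cadherins to actin through catenins, desmosomes couple their own cadherins to intermediate filaments, and gap junctions, made of connexins, let small molecules pass from cell to cell. The corneal endothelium is known for a leaky tight junction barrier, for N-cadherin where surface epithelia use E-cadherin, and for gap junctions of connexin 43. The members were therefore separated into 18 genes listed as endothelial or broadly expressed, 18 genes of epithelial junctions and 7 genes listed as neural or mesenchymal. The grouping is coarse. Cldn11, known from myelin and the testis, is among the first 18, and the tight junction gene Jam2 is among the 7.

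Total estimated counts were 47942775, 54265479 and 30344161 in the Tcf4+/- libraries and 46644739 to 51302379 in the Col8a2 libraries, so Tcf4+/- replicate 3 was the smallest library. Tcf4 itself was no lower under its own label. It stood at 440, 599 and 373 CPM (counts scaled by TMM to library size) in the Tcf4+/- libraries, against 313, 470 and 430 CPM in the Col8a2 libraries. Its log2 fold change was 0.22 with a 95% interval of -0.52 to 0.96, so "Tcf4+/-" is used below as the name of the libraries that carry this label. All 12 corneal endothelium markers were detected in every library, with a summed level of 14161 to 29076 CPM in the Tcf4+/- libraries and 17724 to 30739 CPM in the Col8a2 libraries. Markers of other tissues were present as well. The 15 corneal epithelium markers summed to 5467 to 11808 CPM in the Tcf4+/- libraries and 6089 to 13314 CPM in the Col8a2 libraries. The 13 lens markers summed to 91.6, 4262 and 11230 CPM in the Tcf4+/- libraries, against 628, 33.9 and 294 CPM in the Col8a2 libraries, and Lim2 was at 0 in 3 libraries, while Cryba2, Crygs, Mip and Lgsn were at 0 in Col8a2 replicate 2. The 8 keratocyte markers summed to 8122, 17178 and 10131 CPM in the Tcf4+/- libraries, against 11047, 8656 and 5196 CPM in the Col8a2 libraries, and all 8 were fitted higher in Tcf4+/-. The 5 retina markers summed to 4707, 2261 and 9740 CPM in the Tcf4+/- libraries, against 3200, 2291 and 2426 CPM in the Col8a2 libraries, and the 5 erythroid markers to 6127, 1362 and 2943 CPM in Tcf4+/-, against 1296, 531 and 1967 CPM in Col8a2. All 5 of each were fitted higher in Tcf4+/-, 3 of the erythroid markers with an unadjusted p under 0.05 in edgeR. The lens markers differed most: all 12 that were tested were fitted higher in Tcf4+/-, with a median log2 fold change of 4.12. Of these, 7 had an unadjusted p under 0.05 in edgeR. The part of these cells in the members' values was not tested.

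Of the 43 members, 42 passed the filter on low counts, and 0 of them were called between the genotypes by edgeR's quasi-likelihood test at a Benjamini-Hochberg adjusted p of 0.05. Of all 17639 genes tested, 0 (0%) were called, and the adjusted p of each tested member was 0.99988. DESeq2 called 0 members while it called 107 of 20874 genes (0.513%), and limma voom called 0 members and 0 genes (0%). An unadjusted p under 0.05 in edgeR was reached by 0 members, against 427 genes in all (2.42%). In 0 of the 42 tested members did the 3 Tcf4+/- libraries lie wholly above or below the 3 Col8a2 libraries, against 1429 of all genes (8.10%). The fitted fold changes lay on both sides: 22 members were higher in Tcf4+/- and 20 lower, with a median log2 fold change of 0.02, beside a median of 0.00 over all genes tested.

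The intervals show how much difference these 6 libraries could leave undetected. The median standard error of a member's log2 fold change was 0.52, and the 95% interval lay within a 2-fold change in both directions for 6 members. A 2-fold fall lay outside the interval for 16 members and a 2-fold rise for 17. The lens markers were high in 2 of the 3 Tcf4+/- libraries, and their part in the values of the members was not tested.

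**Figure D1:**
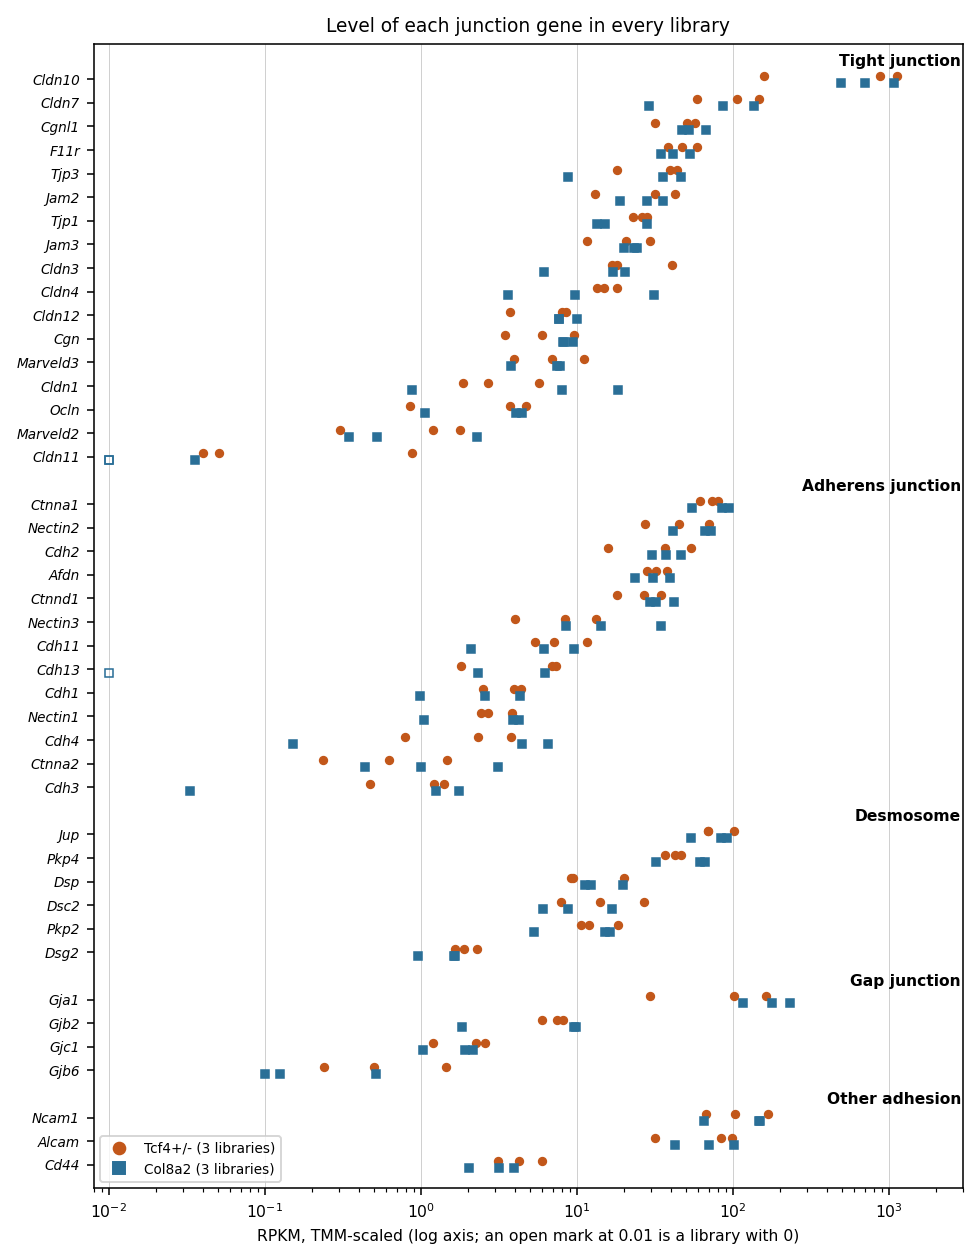
Level of each of the 43 members in every library, in TMM-scaled RPKM on a log axis, with Tcf4+/- libraries as circles and Col8a2 libraries as squares; open marks at 0.01 stand for a library with 0. Members are ordered within each junction type by level, from Cldn10 at a mean of 743 to Cldn11 at 0.168, and the groups overlap in every tested member.

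**Figure D2:**
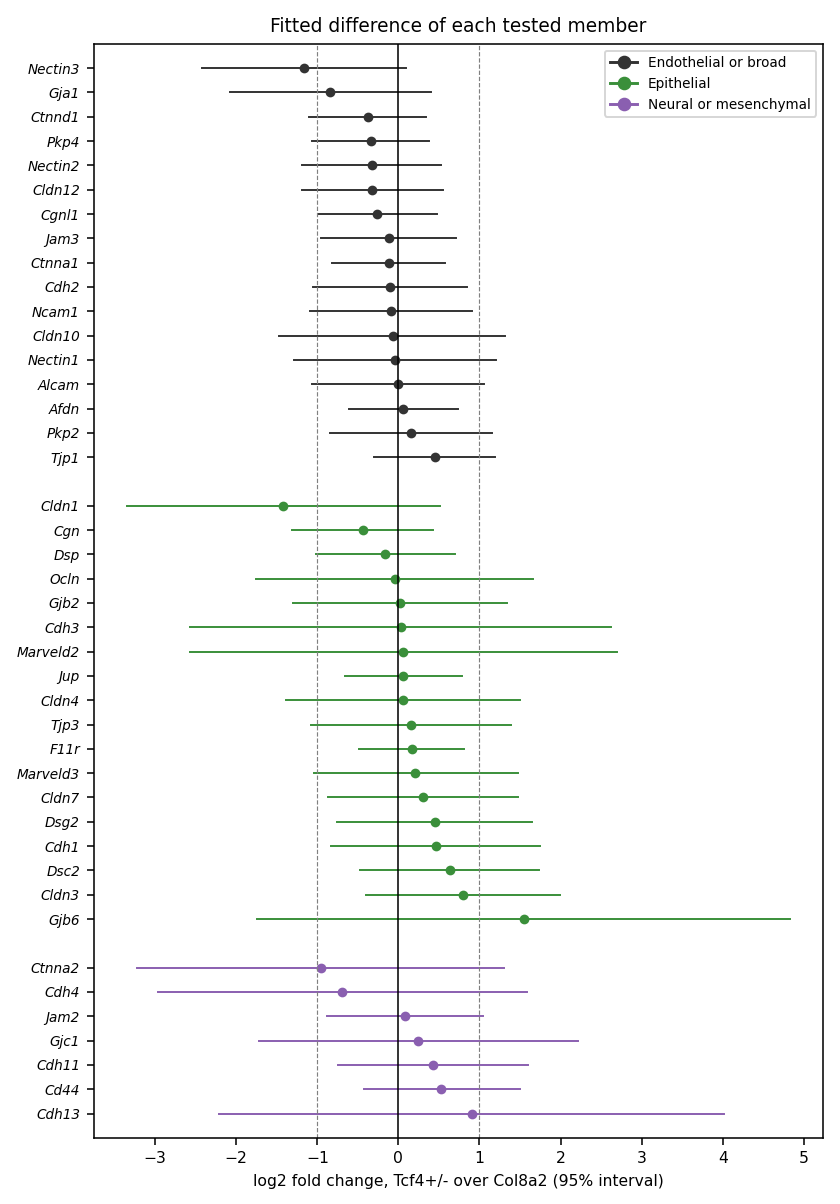
Fitted log2 fold change (Tcf4+/- over Col8a2) of each tested member with its 95% interval, sorted within the 3 classes; dashed lines mark a 2-fold change. Every interval includes 0, and those of Cdh13, Gjb6, Marveld2 and Cdh3 are among the widest.

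Levels are compared between genes as RPKM, that is CPM divided by effective transcript length in kilobases, averaged over the 6 libraries. By this measure Cldn10 led the members with 743, followed by Gja1 (connexin 43) with 137, Ncam1 with 117, Cldn7 with 93.9, Jup (plakoglobin) with 78.7, Ctnna1 (alpha E-catenin) with 75.0 and Alcam with 71.6. Of these 7 genes, Cldn7 and Jup belong to the epithelial class. At the other end stood Gjb6 with 0.488 and Cldn11 with 0.168. A level of at least 1 CPM in all 6 libraries was reached by 36 of the 43 members.

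Within each genotype the libraries differed from one another, and the endothelial and epithelial members did so in different libraries. The 17 tested endothelial or broad members had a median deviation from their own means of -0.01, 0.46 and -0.72 on the log2 scale in the Tcf4+/- libraries, against 0.07, 0.44 and 0.12 in the Col8a2 libraries. Tcf4+/- replicate 3 was thus the low library of this class, and it held the lowest value of 9 of the 17 members (52.9%), where it held the lowest value of 24.2% of all genes tested. This library also held the highest value of 22.6% of all genes tested, against 0% of this class. Both shares over all genes were the largest of any library. The 18 epithelial members had medians of 0.41, -0.11 and -0.02 in the Tcf4+/- libraries, against 0.60, -0.71 and -0.01 in the Col8a2 libraries. Here Col8a2 replicate 2 was the low library, with the lowest value of 9 of the 18 members (50.0%), against 17.1% of all genes tested. The median over all genes stayed between -0.00 and 0.05 in every library.

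Marker genes that are not members had the same lowest library by median, though the epithelial lists differed in other libraries. The corneal endothelium markers had medians of 0.21, 0.49 and -0.71 in the Tcf4+/- libraries, against -0.18, 0.17 and 0.39 in the Col8a2 libraries, and 8 of the 12 were lowest in Tcf4+/- replicate 3. The corneal epithelium markers had medians of 0.38, -0.45 and 0.40 in the Tcf4+/- libraries, against 0.61, -0.56 and -0.18 in the Col8a2 libraries, and 7 of the 15 were lowest in Col8a2 replicate 2. A further 5 were lowest in Tcf4+/- replicate 2, where 0 of the 18 epithelial members were lowest and the median of those members was -0.11. In Tcf4+/- replicate 3 the epithelial members had a median of -0.02, against 0.40 for the markers. The part of these markers' cells in the members' values was not tested. In such bulk samples fewer cells of a type and less RNA per cell cannot be told apart.

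**Figure D3:**
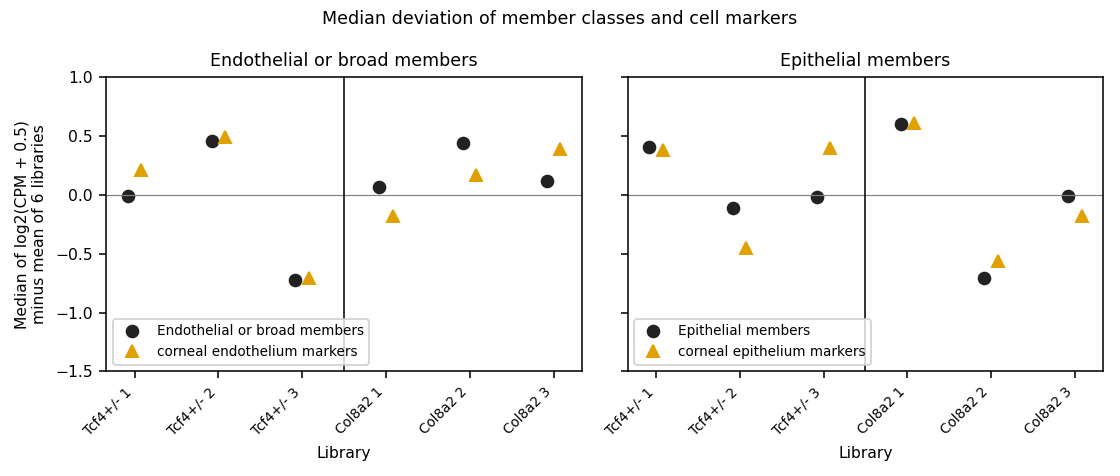
Median deviation, in log2(CPM + 0.5) from the mean of the 6 libraries, of the endothelial or broad members and the corneal endothelium markers (left) and of the epithelial members and the corneal epithelium markers (right), by library. Left, both symbols are lowest in Tcf4+/- replicate 3 (-0.72 and -0.71); right, both are lowest in Col8a2 replicate 2 (-0.71 and -0.56).

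**Figure D4:**
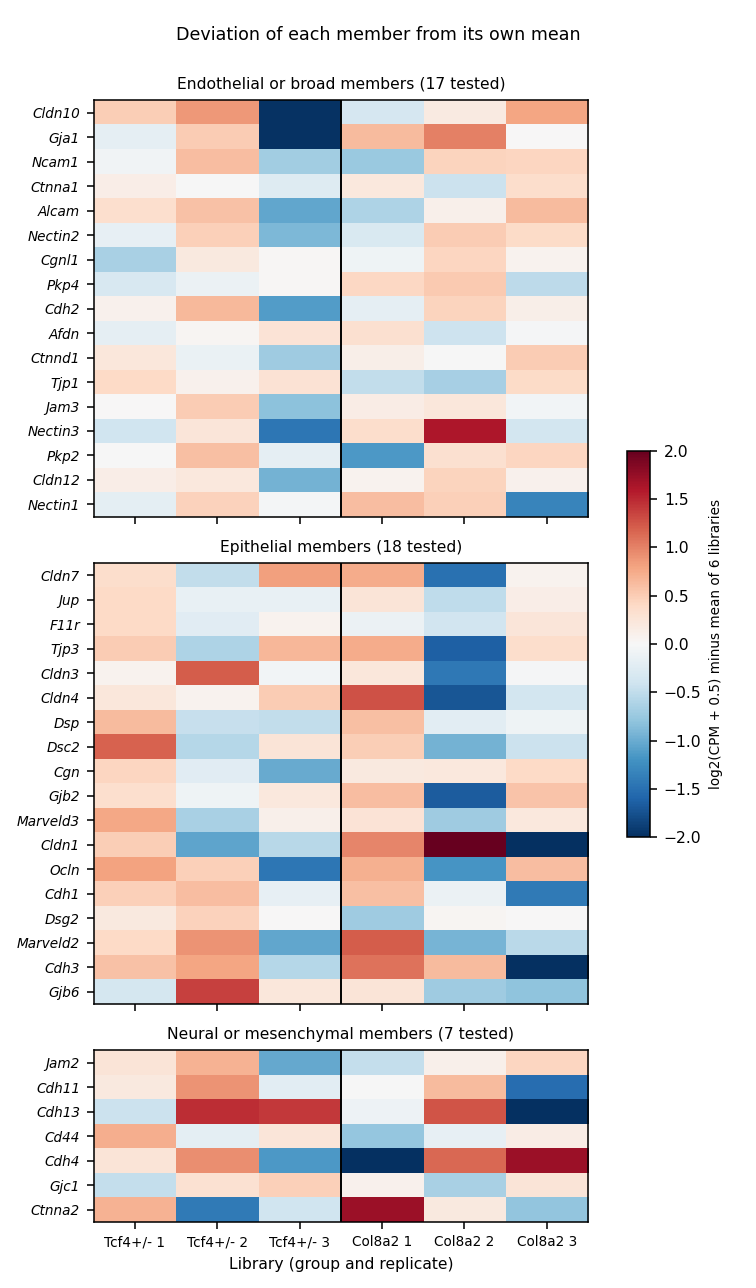
Deviation of each tested member from its own mean, in log2(CPM + 0.5), by library and class, with Tcf4+/- libraries left of the line and Col8a2 libraries right of it; colours saturate at 2 in either direction. Cldn10 and Gja1 are the darkest low values of Tcf4+/- replicate 3, and Cldn7, Tjp3, Cldn3, Cldn4 and Gjb2 are low in Col8a2 replicate 2.

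Between the genotypes, 14 of the 18 epithelial members were fitted higher in Tcf4+/- and 4 lower, with a median log2 fold change of 0.11, and 3 of the 17 endothelial or broad members higher and 14 lower, with a median of -0.12. Over all genes tested 8839 were fitted higher and 8800 lower, and no member of either class passed the test. Without Tcf4+/- replicate 3 the median of the endothelial or broad members was -0.03. Of the 18 epithelial members, 9 had their lowest value in the single library Col8a2 replicate 2. The 7 neural or mesenchymal members had a median of 0.24, with 5 higher and 2 lower. Summed over the class, the endothelial or broad members reached 1389 ± 721 RPKM in Tcf4+/- and 1565 ± 351 RPKM in Col8a2, and the epithelial members 372 ± 74.5 and 330 ± 131 RPKM in the same order (mean ± SD, n = 3 each). Each difference is smaller than the spread within a group.

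E proteins such as Tcf4 bind E-boxes, sites of the form CANNTG, and the form CAGGTG, which reads CACCTG on the other strand, is also known as the site through which zinc finger repressors act on epithelial junction genes. Promoter windows of 250 bases before to 50 after a transcription start, from RefSeq on build GRCm38.p6, were at hand for 27 of the 43 members. They serve here only as sequence, since the expression files use GRCm39. CAGGTG or CACCTG, searched on both strands and contained within CANNTG, occurred in 10 of 13 epithelial members with a window (76.9%) and in 3 of 12 endothelial or broad ones (25.0%: Pkp4, Nectin2 and Alcam), against 6098 of 27025 genes in all (22.6%). CANNTG occurred in 92.3% of the epithelial members, 58.3% of the endothelial or broad ones and 75.0% of all genes. These matches describe the letters of the windows and do not show binding.

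The windows of Cldn4 and Cldn7 are printed as examples of epithelial claudins that hold the 6-base site at 2 places each, as 1 window of Ocln also does (-213 and -68), beside those of Cldn10 and Gja1, the members with the highest levels, which hold none. Capitals mark CAGGTG or CACCTG, and each window reads 5′ to 3′ on the strand of its gene. Other CANNTG forms are left in small letters, such as CAGCTG in the Cldn10 window and CAGTTG in that of Gja1. In Cldn4 (chr5:134946885-134947184, minus strand) the sites begin at -14 and 12 relative to the transcription start, and in Cldn7 (chr11:69965171-69965470, plus strand) at -97 and -57. The windows of Cldn10 (chr14:118854700-118854999) and Gja1 (chr10:56377050-56377349) lie on the plus strand.
Cldn4: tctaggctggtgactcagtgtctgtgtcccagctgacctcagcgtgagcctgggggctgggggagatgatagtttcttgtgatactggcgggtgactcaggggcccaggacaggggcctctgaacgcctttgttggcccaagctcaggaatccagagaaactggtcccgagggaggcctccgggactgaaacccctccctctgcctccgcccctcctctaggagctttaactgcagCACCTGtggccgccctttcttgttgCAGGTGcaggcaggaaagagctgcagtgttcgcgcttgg
Cldn7: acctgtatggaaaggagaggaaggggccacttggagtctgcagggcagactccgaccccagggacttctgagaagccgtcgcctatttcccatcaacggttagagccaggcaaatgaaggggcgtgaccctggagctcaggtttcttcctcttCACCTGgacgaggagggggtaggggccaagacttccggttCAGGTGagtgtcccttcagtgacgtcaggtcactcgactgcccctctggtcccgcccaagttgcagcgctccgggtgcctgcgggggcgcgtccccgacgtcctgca
Cldn10: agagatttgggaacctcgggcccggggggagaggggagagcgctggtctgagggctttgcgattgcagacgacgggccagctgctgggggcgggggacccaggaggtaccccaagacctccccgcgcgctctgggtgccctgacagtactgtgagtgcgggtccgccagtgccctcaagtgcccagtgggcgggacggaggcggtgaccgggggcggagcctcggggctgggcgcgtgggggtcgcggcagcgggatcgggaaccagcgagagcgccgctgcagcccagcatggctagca
Gja1: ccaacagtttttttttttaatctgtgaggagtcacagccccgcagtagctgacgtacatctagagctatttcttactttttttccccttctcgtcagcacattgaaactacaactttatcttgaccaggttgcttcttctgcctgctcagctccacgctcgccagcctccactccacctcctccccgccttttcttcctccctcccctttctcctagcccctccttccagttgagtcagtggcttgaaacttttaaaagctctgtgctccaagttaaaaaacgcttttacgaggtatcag
Cldn7 and Cldn10 each have another window in the table, and neither of those holds the site.

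Among the tight junction strand proteins, Cldn10, a claudin that forms ion-selective pores, had by far the highest level. It stood at 1056, 1364 and 190 CPM in the Tcf4+/- libraries, against 595, 848 and 1301 CPM in the Col8a2 libraries. Tcf4+/- replicate 3 was the lowest of the 6, 7.16-fold below the highest, and the groups overlapped. The log2 fold change was -0.07 (95% interval -1.47 to 1.32). Over the alternatives tried it ranged from -0.62 to 0.40, the latter without Tcf4+/- replicate 3. Cldn7, a claudin of surface epithelia, stood at 100, 55.7 and 139 CPM in the Tcf4+/- libraries, against 131, 27.7 and 82.2 CPM in the Col8a2 libraries, with a log2 fold change of 0.30 (-0.87 to 1.47). Its highest library was the one in which Cldn10 was lowest.

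Cldn10 made up 79.8%, 82.4% and 38.0% of the summed RPKM of 20 claudins in the Tcf4+/- libraries, against 64.4%, 83.6% and 83.7% in the Col8a2 libraries. Cldn7 took 9.58%, 4.25% and 35.1% of that pool in the Tcf4+/- libraries, against 17.9%, 3.45% and 6.67% in the Col8a2 libraries. The ratio of Cldn10 to Cldn7 was therefore 1.08 in Tcf4+/- replicate 3 and between 3.61 and 24.2 in the other libraries. The third claudin of the pool was Cldn23, which is not a member, with 4.41%, 4.96% and 11% in the Tcf4+/- libraries, against 3.81%, 1.85% and 5.68% in the Col8a2 libraries. The mean share of Cldn10 was 66.7 ± 24.9% in Tcf4+/- and 77.2 ± 11.1% in Col8a2 (SD, n = 3 each), a difference within the spread.

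Cldn1, a barrier claudin of stratified epithelia, had the largest fold difference between libraries among the claudin members tested, 21.1-fold. It stood at 17.4, 5.67 and 8.20 CPM in the Tcf4+/- libraries, against 24.6, 56.3 and 2.67 CPM in the Col8a2 libraries. The Col8a2 libraries hold both its highest and its lowest value, so the log2 fold change of -1.42 came with an interval of -3.35 to 0.51 (unadjusted p = 0.132 in edgeR). Cldn3, another sealing claudin, stood at 19.2, 43 and 17.7 CPM in the Tcf4+/- libraries, against 21.5, 6.48 and 18.0 CPM in the Col8a2 libraries. Tcf4+/- replicate 2 was high and Col8a2 replicate 2 low while the other 4 lay close together, and the log2 fold change was 0.80 (-0.40 to 1.99; unadjusted p = 0.167).

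Cldn11, known from myelin and the testis, was the 1 member not tested. Its estimated counts were 4, 81 and 2 in the Tcf4+/- libraries, against 0, 0 and 3 in the Col8a2 libraries. Tcf4+/- replicate 2 held 81 of the counts and the others sat at or near the floor of 3 counts. The groups overlapped in counts. In CPM, the scale used for the other genes, they lay just apart. Tcf4+/- replicate 3 stood at 0.0675 CPM and Col8a2 replicate 3 at 0.0593 CPM. At such levels nothing is read from this, and no fold is given. Ocln encodes occludin, a transmembrane protein of the strands. It stood at 13.7, 10.8 and 2.46 CPM in the Tcf4+/- libraries, against 12.8, 3.09 and 11.9 CPM in the Col8a2 libraries, so each group had 1 low library. Its log2 fold change was -0.04 (-1.75 to 1.66), an interval too wide to leave out a 2-fold change either way.

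Tjp1 (ZO-1), the scaffold that ties the strands to actin, stood at 165, 133 and 153 CPM in the Tcf4+/- libraries, against 88.9, 78.7 and 163 CPM in the Col8a2 libraries. Replicates 1 and 2 of Col8a2 lay below all Tcf4+/- libraries, while replicate 3 lay within their range. The log2 fold change was 0.45 (-0.30 to 1.19; unadjusted p = 0.209), and 0.84 without Col8a2 replicate 3 (unadjusted p = 0.0321 in edgeR). Tjp1 made up 34.6 ± 6.96% of the summed RPKM of the 3 zonula occludens genes in Tcf4+/- and 30.2 ± 11.1% in Col8a2 (SD, n = 3 each). Tjp3 (ZO-3), an epithelial scaffold, took 42.6 ± 8.10% in Tcf4+/- and 41.2 ± 15.5% in Col8a2. Its exons overlap those of Apba3 on the opposite strand, and the library kit is not described as keeping the strand, so reads of this gene, at 28.2 CPM, cannot be told apart there.

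Cgnl1 (paracingulin), which links both tight and adherens junctions to the cytoskeleton, stood at 181, 324 and 289 CPM in the Tcf4+/- libraries, against 267, 383 and 297 CPM in the Col8a2 libraries. Unlike Cldn10 it was not low in Tcf4+/- replicate 3, and its log2 fold change was -0.26 (-0.99 to 0.48). It made up 87.0 ± 8.91% of the RPKM of the cingulin pair in Tcf4+/- and 86.4 ± 2.38% in Col8a2 (SD, n = 3 each). F11r (JAM-A), an immunoglobulin-type protein of tight junctions, was among the steadiest members. It stood at 124, 80.6 and 99.2 CPM in the Tcf4+/- libraries, against 86.6, 72.5 and 112 CPM in the Col8a2 libraries. The log2 fold change of F11r was 0.17 (-0.48 to 0.81), which leaves out a 2-fold change in both directions.

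**Figure D5:**
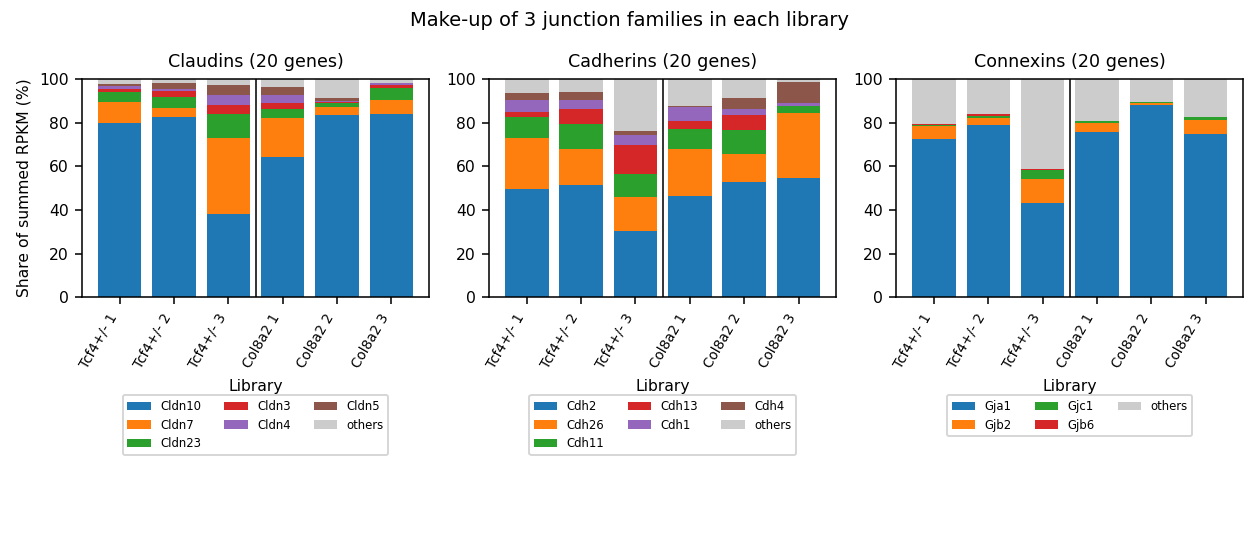
Make-up of 20 claudins, 20 cadherins and 20 connexins in each library, as the percent of their summed RPKM, with Tcf4+/- libraries left of the line and genes not drawn singly in grey. Cldn10, Cdh2 and Gja1 take the largest share of any gene of their family in every library, and each has its smallest share in Tcf4+/- replicate 3 (38.0%, 30.3% and 43.3%).

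In the adherens junctions Cdh2 (N-cadherin) was the leading cadherin in both genotypes. Cdh2 stood at 153, 226 and 65.7 CPM in the Tcf4+/- libraries, against 126, 195 and 156 CPM in the Col8a2 libraries. Only Tcf4+/- replicate 3 lay apart, below the other 5, and the log2 fold change was -0.10 (-1.05 to 0.85). Over the alternatives tried it ranged from -0.55 to 0.25, the latter without that library. Cdh1 (E-cadherin), the cadherin of surface epithelia, stood at 16.6, 18.4 and 10.5 CPM in the Tcf4+/- libraries, against 18.2, 10.8 and 4.13 CPM in the Col8a2 libraries, with a log2 fold change of 0.46 (-0.83 to 1.75). Col8a2 replicate 3 was its lowest library. Per length, Cdh2 exceeded Cdh1 9.26-, 12.4- and 6.28-fold in the Tcf4+/- libraries and 6.99-, 18.2- and 38.0-fold in the Col8a2 libraries.

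Within the pool of 20 cadherins Cdh2 took 43.9 ± 11.8% in Tcf4+/- and 51.2 ± 4.45% in Col8a2, while Cdh1 took between 1.44% and 6.61% in the 6 libraries. The next largest share belonged to Cdh26, which is not a member, with 23.2%, 16.5% and 15.7% in the Tcf4+/- libraries, against 21.5%, 12.8% and 29.6% in the Col8a2 libraries. Cdh11, a mesenchymal cadherin, followed with 10.4 ± 0.721% in Tcf4+/- and 7.80 ± 4.16% in Col8a2 (SD, n = 3 each).

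Of the catenins, Ctnna1 and Ctnnd1 varied less over the libraries than Cdh2 and Cdh1, and Ctnna2 varied more. Ctnna1, which couples the complex to actin, stood at 274, 249 and 209 CPM in the Tcf4+/- libraries, against 290, 186 and 321 CPM in the Col8a2 libraries, with a log2 fold change of -0.12 (-0.82 to 0.58). Its interval leaves out a 2-fold change in both directions, and it made up 99.0 ± 0.740% of the alpha catenin pool in Tcf4+/- and 98.1 ± 1.54% in Col8a2 (SD, n = 3 each). Ctnna2, the neuronal alpha catenin, had 5.53, 0.890 and 2.33 CPM in the Tcf4+/- libraries, against 11.7, 3.73 and 1.64 CPM in the Col8a2 libraries, and its log2 fold change of -0.96 had a standard error of 1.01. Ctnnd1 (p120 catenin), which keeps cadherins at the membrane, stood at 169, 131 and 87.2 CPM in the Tcf4+/- libraries, against 156, 143 and 204 CPM in the Col8a2 libraries. The groups overlapped between 143 and 169 CPM, and the log2 fold change was -0.38 (-1.10 to 0.34; unadjusted p = 0.265 in edgeR).

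Nectins are immunoglobulin-type adhesion molecules held at the adherens junction by afadin. Nectin3 had the smallest unadjusted p of all members, 0.0660 in edgeR. It stood at 28.4, 44.9 and 13.6 CPM in the Tcf4+/- libraries, against 48.5, 117 and 29.1 CPM in the Col8a2 libraries. Col8a2 replicate 2 was the high library and Tcf4+/- replicate 3 the low one, and the groups overlapped because Tcf4+/- replicate 2 lay above Col8a2 replicate 3. The means were 29.0 ± 15.7 CPM in Tcf4+/- and 64.9 ± 46.3 CPM in Col8a2 (SD, n = 3 each), and the log2 fold change was -1.16 (95% interval -2.42 to 0.09). Over the alternatives tried it ranged from -1.62 to -0.42.

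Nectin2, the most abundant nectin per length, stood at 85.6, 134 and 51.7 CPM in the Tcf4+/- libraries, against 77.7, 137 and 126 CPM in the Col8a2 libraries, with a log2 fold change of -0.33 (-1.19 to 0.53). Its lowest value was again that of Tcf4+/- replicate 3. Within the pool of 4 nectins Nectin3 took 11.7 ± 1.48% in Tcf4+/- and 19.9 ± 10.7% in Col8a2, and Nectin2 took 67.7 ± 3.00% and 63.2 ± 2.20% in the same order (SD, n = 3 each). Afdn (afadin) stood at 42.2, 48.8 and 57.5 CPM in the Tcf4+/- libraries, against 59.9, 35.5 and 46.7 CPM in the Col8a2 libraries. With 1.69-fold between its highest and lowest library, Afdn was the steadiest of the tested members, and its log2 fold change was 0.06 (-0.61 to 0.73).

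The desmosomal members were led by Jup, the plakoglobin shared with adherens junctions, and Pkp4, a p120-type protein found at both structures. Jup stood at 289, 198 and 197 CPM in the Tcf4+/- libraries, against 262, 154 and 240 CPM in the Col8a2 libraries, with a log2 fold change of 0.06 (-0.66 to 0.78). Replicate 1 was the highest library of each genotype, and the interval leaves out a 2-fold change either way. Pkp4 stood at 94.4, 109 and 120 CPM in the Tcf4+/- libraries, against 158, 169 and 82.0 CPM in the Col8a2 libraries. Replicates 1 and 2 of Col8a2 lay above and replicate 3 below all Tcf4+/- libraries, and the log2 fold change was -0.34 with a standard error of 0.32.

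Dsp (desmoplakin), the link to intermediate filaments, stood at 157, 73.4 and 72.1 CPM in the Tcf4+/- libraries, against 154, 87.8 and 95.8 CPM in the Col8a2 libraries. Replicate 1 was high in both genotypes, and the log2 fold change was -0.16 with a standard error of 0.38. Dsc2 (desmocollin 2) stood at 117, 34.5 and 61.0 CPM in the Tcf4+/- libraries, against 72.6, 26.3 and 38.0 CPM in the Col8a2 libraries. Its log2 fold change of 0.64 (-0.47 to 1.74; unadjusted p = 0.229) was 1.35 without Tcf4+/- replicates 2 and 3 (unadjusted p = 0.0398 in edgeR), a fit that rests on 1 Tcf4+/- library. Dsg2 (desmoglein 2) was low, at 9.45, 11.4 and 8.24 CPM in the Tcf4+/- libraries, against 4.82, 8.36 and 8.18 CPM in the Col8a2 libraries. The groups of Dsg2 overlapped narrowly, with Tcf4+/- replicate 3 below Col8a2 replicate 2, and the log2 fold change was 0.45 with a standard error of 0.54.

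Of 7 desmosomal cadherins, Dsc2 made up 47.9 ± 5.84% of the summed RPKM in Tcf4+/- and 39.0 ± 5.33% in Col8a2, and Dsg1a, which is not a member, 15.1 ± 6.09% in Tcf4+/- and 29.3 ± 4.21% in Col8a2 (SD, n = 3 each). The shares of Dsg1a were 19.9%, 8.23% and 17.1% in the Tcf4+/- libraries, against 26.0%, 34.1% and 27.8% in the Col8a2 libraries. They did not overlap, no test was run on them, and the log2 fold change of the gene itself was -0.30 (-1.69 to 1.09) with overlapping groups. Dsg1a was not alone in this. The share of the member Ctnnd1 in its pool with Jup and Ctnnb1 was lower in every Tcf4+/- library than in any Col8a2 library. So was that of Cldn2, which is not a member, among the claudins. Those of Cdh5 among the cadherins and of Cldn11, near the floor, among the claudins were higher. Nothing is therefore read from the lack of overlap. Among 4 plakophilins Pkp4 took 41.2 ± 11.2% in Tcf4+/- and 42.6 ± 17.5% in Col8a2.

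In the gap junctions Gja1 outweighed the other connexins. It stood at 288, 464 and 82.8 CPM in the Tcf4+/- libraries, against 506, 658 and 328 CPM in the Col8a2 libraries. Tcf4+/- replicate 3 was the lowest library, 7.94-fold below the highest, and the groups overlapped because Tcf4+/- replicate 2 lay above Col8a2 replicate 3. The means were 278 ± 191 CPM in Tcf4+/- and 497 ± 165 CPM in Col8a2 (SD, n = 3 each), and the log2 fold change was -0.84 (95% interval -2.08 to 0.40; unadjusted p = 0.163 in edgeR). Without Tcf4+/- replicate 3 it was -0.41, and without Tcf4+/- replicate 2 it was -1.42 (unadjusted p = 0.0299 in edgeR).

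Gja1 made up 72.4%, 79.1% and 43.3% of the RPKM of 20 connexins in the Tcf4+/- libraries, against 75.5%, 88.1% and 74.8% in the Col8a2 libraries. Gjb2 (connexin 26), an epithelial connexin, stood at 17.9, 13.2 and 16.4 CPM in the Tcf4+/- libraries, against 21.9, 4.08 and 21.0 CPM in the Col8a2 libraries, with a log2 fold change of 0.02 (standard error 0.59). Col8a2 replicate 2 was its low library, which puts it among the 9 epithelial members lowest there, and in that library Gja1 exceeded Gjb2 125-fold per length, against 3.93-fold in Tcf4+/- replicate 3. Gjc1 (connexin 45) stood at 2.01, 3.83 and 4.39 CPM in the Tcf4+/- libraries, against 3.23, 1.74 and 3.68 CPM in the Col8a2 libraries, with a log2 fold change of 0.24. Gjb6 (connexin 30) was close to the detection limit, at 0.424, 2.54 and 0.878 CPM in the Tcf4+/- libraries, against 0.913, 0.222 and 0.178 CPM in the Col8a2 libraries. The log2 fold change of Gjb6 was 1.55 with an interval of -1.74 to 4.83, and -0.06 without Tcf4+/- replicates 2 and 3.

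Of the remaining adhesion molecules, Ncam1 and Alcam (CD166) are surface proteins known from human corneal endothelium, and Cd44 is the hyaluronan receptor whose low level is used to select mature human corneal endothelial cells in culture. Ncam1 stood at 496, 801 and 321 CPM in the Tcf4+/- libraries, against 311, 710 and 701 CPM in the Col8a2 libraries, with a log2 fold change of -0.09 (standard error 0.45). Alcam stood at 480, 571 and 183 CPM in the Tcf4+/- libraries, against 247, 405 and 584 CPM in the Col8a2 libraries, with a log2 fold change of -0.00 (-1.06 to 1.06). Both genes were low in Tcf4+/- replicate 3 and in Col8a2 replicate 1. Cd44 stood at 28.2, 14.7 and 20.1 CPM in the Tcf4+/- libraries, against 9.66, 15.0 and 18.8 CPM in the Col8a2 libraries, with a log2 fold change of 0.53 (standard error 0.43). Its level per length, 3.76 RPKM on average, stood far below the 117 RPKM of Ncam1.

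The other 14 members had mean levels of 2.40 to 101 CPM over the 6 libraries. Of these, 9 were fitted higher in Tcf4+/- and 5 lower, with log2 fold changes from -0.69 (Cdh4) to 0.91 (Cdh13) and unadjusted p from 0.289 to 0.981 in edgeR. Both of these depended on the fit: with limma voom the log2 fold changes were 0.35 for Cdh4 and 3.53 for Cdh13, and without Tcf4+/- replicates 2 and 3 that of Cdh13 was -0.68. Without Col8a2 replicate 3 they were 0.01 for Cdh4 and 0.32 for Cdh13. Cdh3 and Cdh4 were the most uneven, with 53.3-fold and 43.4-fold between their highest and lowest library, and Cdh13 was at 0 in Col8a2 replicate 3. Over all 42 tested members the highest library was within 2-fold of the lowest for 4 (F11r, Ctnna1, Afdn and Jup), or 9.52%, against 20.6% of all genes tested. The median of this ratio was 2.65 for the endothelial or broad members, 5.17 for the epithelial members and 3.50 for all genes tested.

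A further 89 genes of the same structures were listed beside the members, of which 59 were tested and 0 were called, with 20 fitted higher in Tcf4+/- and 39 lower and a median log2 fold change of -0.17. Ctnnb1 (beta-catenin), the partner of every classical cadherin, stood at 401, 393 and 325 CPM in the Tcf4+/- libraries, against 364, 314 and 421 CPM in the Col8a2 libraries, with a log2 fold change of 0.03. Perp, a desmosomal protein of stratified epithelia, stood at 619, 152 and 489 CPM in the Tcf4+/- libraries, against 566, 191 and 335 CPM in the Col8a2 libraries, low in replicate 2 of each genotype. The 8 desmosomal genes tested outside the members, Perp among them, had the same 2 low libraries, with median deviations of 0.78, -1.02 and 0.02 in Tcf4+/- and 0.78, -0.84 and 0.18 in Col8a2. The smallest unadjusted p in edgeR among the 59 was 0.0768, for Cldn2, which forms cation pores. Cldn2 stood at 20.7, 18.0 and 3.58 CPM in the Tcf4+/- libraries, against 15.1, 72.0 and 25.4 CPM in the Col8a2 libraries, with a log2 fold change of -1.41.

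In the tight junction group Patj and Magi2, scaffolds with PDZ domains, had log2 fold changes of -0.82 and 1.09 with intervals of -1.83 to 0.20 and -0.57 to 2.74. Ybx3, a factor that binds ZO-1, and the angiomotin Amotl2 led that group by level, with log2 fold changes of 0.19 and -0.26. Of the adherens group, Ajuba and Lmo7, both LIM domain proteins, had log2 fold changes of -0.76 and 0.54, and Sorbs3 (vinexin) one of -0.14. The desmosomal cadherins Dsc3 and Dsg3, at 0.71 and 0.70, and the plaque proteins Ppl (periplakin) and Pkp3, at -0.46 and -0.48, were fitted on opposite sides of 0, and their standard errors ran from 0.49 to 0.73. The connexin Gjb5 had a log2 fold change of -0.67. The 95% interval of each of these genes included 0.

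In 3 of these 59 genes the groups did not overlap, where 8.10% of all genes tested did not overlap, so nothing is read from this count. Cdh5 (VE-cadherin), the cadherin of blood vessels, stood at 3.62, 8.18 and 6.14 CPM in the Tcf4+/- libraries, against 3.06, 3.35 and 0.257 CPM in the Col8a2 libraries, with a log2 fold change of 1.43 (-0.83 to 3.69). The 7 vascular endothelium markers summed to 78.0, 165 and 73.4 CPM in the Tcf4+/- libraries, against 100, 84.8 and 24.5 CPM in the Col8a2 libraries, with Tie1 at 0 in Col8a2 replicate 3, and their part in the values of Cdh5 was not tested. Panx2, a pannexin channel protein, was lower in Tcf4+/- at 0.508, 0.164 and 0.371 CPM, against 6.54, 0.666 and 0.553 CPM in Col8a2, a difference that Col8a2 replicate 1 carries. Pvr, a nectin-like receptor, stood at 9.51, 8.78 and 3.17 CPM in the Tcf4+/- libraries, against 9.52, 11.7 and 12.6 CPM in the Col8a2 libraries, with replicate 1 of the genotypes all but equal. Cdh5 and Panx2 came under the rule for named genes, while Pvr, Cldn23, Cdh26 and Dsg1a were named after their values were seen.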

How the data were processed

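The authors deposited 1 gene table per library, and each sample's group and replicate number come from its title. The submitters' processing notes name fastp 0.23.2, FastQC 0.12.1, RSEM, STAR and DESeq2 with build GRCm39, while the annotation release is not given in the sources used here, nor are the other versions. Per the file headers the tables hold expected counts, TPM, lengths and effective lengths per Ensembl gene. Expected counts, as deposited, carry no scaling for depth. Of their values 9.97% are not whole numbers, so they were rounded. TPM, as deposited, is scaled to length and to one sum per library, and it served only for alternative fits. Length minus effective length was 241, 155 and 150 bases in the Tcf4+/- libraries and 211, 234 and 234 bases in the Col8a2 libraries.

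The files name no genes. Symbols for 51884 of 57180 identifiers came from GENCODE M21. As its build is GRCm38, it gave names and exon overlaps only. The filter filterByExpr left 17639 genes, which were TMM-scaled (0.973 to 1.06) and entered robust quasi-likelihood fits in edgeR 4.0.16 (R 4.3.3), with Benjamini-Hochberg adjustment over all of them. Intervals cover 95%. The common biological coefficient of variation was 0.744. Limma 3.58.1 (voom) and DESeq2 1.42.0 were run beside it. The fit was also run on simulated counts whose spread was capped below the common value of the data, so that run does not show its power here. Deviations used log2(CPM + 0.5). Per the labels' protocols, SMART-Seq HT and Nextera XT were used, with no strand stated. No identical libraries were found. The labels do not say whether libraries came from separate animals, so p-values measure only the spread between these samples, which may be technical.

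The members, classes and lists were chosen with earlier results of these data known. Per junction type, the up to 4 members of highest level and the 3 of smallest p were given in every library, with Cdh1, Cdh2, Gja1, Tjp1, Ocln, Cldn10 and Cldn11. Of the other junction genes, the rule takes the 3 of smallest p and the 2 of highest level per type, and 3 that it takes are not reported here. Alternatives changed the tool, scaling, filter or unit, added a replicate block or left out libraries.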

Additional observations from a re-analysis of the deposited data

How the results depend on the processing

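Under all 16 alternatives 0 of the tested members and 0 of the other junction genes were called, and the smallest adjusted p of a member was 0.774. The count of members with an unadjusted p under 0.05, 0 in either direction as reported, changed in some of them. Without a filter on low counts it was 1 lower (Nectin3, log2 fold change -1.18). Without Tcf4+/- replicates 2 and 3, a fit in which the lone Tcf4+/- library is assumed to vary like the others, it was 1 higher (Dsc2, 1.35). Leaving out 1 library at a time gave 0 to 1 higher and 0 to 2 lower: Nectin3 (-1.62) and Gja1 (-1.42) were lower without Tcf4+/- replicate 2, Cldn4 (1.20) was higher without Col8a2 replicate 1, and without Col8a2 replicate 3 Tjp1 (0.84) was higher and Cldn1 (-1.96) and Nectin3 (-1.51) were lower. With a replicate block the count was 2 lower (Nectin3, -1.08, and Gja1, -1.09) and 0 higher. The labels give the samples a number and name no pairing. Same-numbered libraries correlated at -0.024, 0.139 and -0.015 in their deviations from the group means, and 1 of 3 Tcf4+/- libraries (replicate 2) correlated best with its own number. With so few libraries these correlations cannot settle whether same-numbered libraries share a batch. Some genes, such as Jup, Dsp and Perp, were high or low in the same-numbered library of both genotypes.

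Of the 42 tested members, 14 kept the sign of their log2 fold change in every alternative that gave one, among them Tjp1, Cldn1, Cldn3, Nectin2, Nectin3, Pkp4, Dsc2 and Gja1, and 28 changed sign in at least 1. On log2(TPM + 0.1) and log2(TPM + 1) the median of all genes shifted to -0.18 and -0.15, and that of the endothelial or broad members was -0.44 and -0.43. The cause was not tested. With a common coefficient of variation of 0.744 and 3 libraries a group, most members' intervals hold a 2-fold change.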
